A study of Mus musculus with 6 samples.

Results

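The IL-1 family and inflammasome genes were 10 genes, chosen by symbol: Il1a, Il1b, Il18, Il1rn, Il1r2, Il18bp, Nlrp3, Pycard, Casp1 and Gsdmd. All 10 were found among the 55401 rows of the deposited gene table, and all 10 were among the 18277 genes with enough counts to be tested. The RNA came from F4/80+ cells, labelled as macrophages, of orthotopic liver tumours. The tumours grew for 14 days in mice whose right liver lobe had received Hepa 1-6, an established hepatoma line of mouse origin. In the Sms-OE group (3 libraries) the injected tumour cells overexpressed Sms, the gene of spermine synthase, from a lentivirus, and in the control group (3 libraries, labelled WT Control) they did not. The altered gene was therefore in the injected tumour cells and not, by design, in the cells sequenced. The lentiviral promoter, the control vector, whether the line was a clone, and the strain, age and number of mice do not appear in the labels. Nothing in the labels says that the 3 libraries of a group came from separate mice, so the p-values measure the spread between these libraries, which may be technical.

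IL-1 alpha and IL-1 beta signal through the same receptor, and IL-1 beta and IL-18 are made as inactive precursors. An inflammasome is a complex in which a sensor such as NLRP3 gathers the adaptor ASC, the product of Pycard, which recruits caspase-1. Caspase-1 then cuts both precursors and gasdermin D, whose cut form makes pores in the cell membrane. In macrophages the RNA of the sensor and of the IL-1 precursors is known to be induced by inflammatory signals, while the cutting step acts on protein and leaves no direct trace in RNA.

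Library totals were 49833764 to 51123047 estimated counts in Sms-OE and 51583985 to 58154006 in control libraries. Sms itself was at 32.9, 33.2 and 33.2 CPM (counts per 1000000 counts of the library, scaled by edgeR's TMM factors) in cells from Sms-OE tumours, against 26.0, 28.3 and 26.2 CPM in cells from control tumours. It passed the test described below as higher in Sms-OE (log2 fold change 0.30 ± 0.0939 SE, adjusted p = 0.0382, edgeR). Which cells this RNA came from was not tested. Macrophage markers were abundant in every library, and the summed CPM of the 8 listed was 4309 to 5230.2 in Sms-OE and 4799 to 4886 in control libraries, with 2 of the 8 lower (Cd68 and C1qa). The F4/80 gene Adgre1 was at 521, 660.1 and 529 CPM in Sms-OE libraries and at 334, 474 and 539 CPM in control libraries. Neutrophil markers were abundant too, with a sum over 14 genes of 6449 to 8389 CPM in Sms-OE and 7098 to 9394 CPM in control libraries. The 6 listed Kupffer cell genes, which mark the resident macrophages of the liver, all rose and summed to 331 to 446 CPM in Sms-OE and 134 to 153 CPM in control libraries. Haemoglobin RNA took 0.0225, 0.485 and 0.512% of the counts in Sms-OE libraries 1, 2 and 3, against 0.00441 to 0.0172% in control libraries, so that Sms-OE libraries 2 and 3 stood apart. In bulk RNA, fewer cells of a type and less RNA per cell cannot be told apart.

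Against that background the inflammasome sensor Nlrp3 and the decoy receptor Il1r2 rose in cells from Sms-OE tumours, and the adaptor Pycard and the protease Casp1 fell. The other 6 members (Il1a, Il1b, Il18, Il1rn, Il18bp and Gsdmd) did not pass the test, which was edgeR's quasi-likelihood test with Benjamini-Hochberg adjustment over all 18277 genes and a threshold of 0.05. The falls held less well than the rises. Nlrp3 and Il1r2 passed in all 15 other fits tried, Casp1 in 10 and Pycard in 6. With offsets for transcript length and GC content, Casp1 was at -0.03 (adjusted p = 0.833, edgeR). Changes were common across the genome: the test called 26.9% of all genes, 12.5% higher and 14.3% lower in Sms-OE. Of the 10 members 4 were called, 2 in each direction, too few for the share itself to be read as a result about them. The median log2 fold change of the 10 members was -0.17, and that of all genes tested was -0.001. Over all genes 2293 were higher and 2615 lower, and with library size alone as the scaling 2521 were higher and 1788 lower, and Pycard no longer passed (adjusted p = 0.0564).

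**Figure D1:**
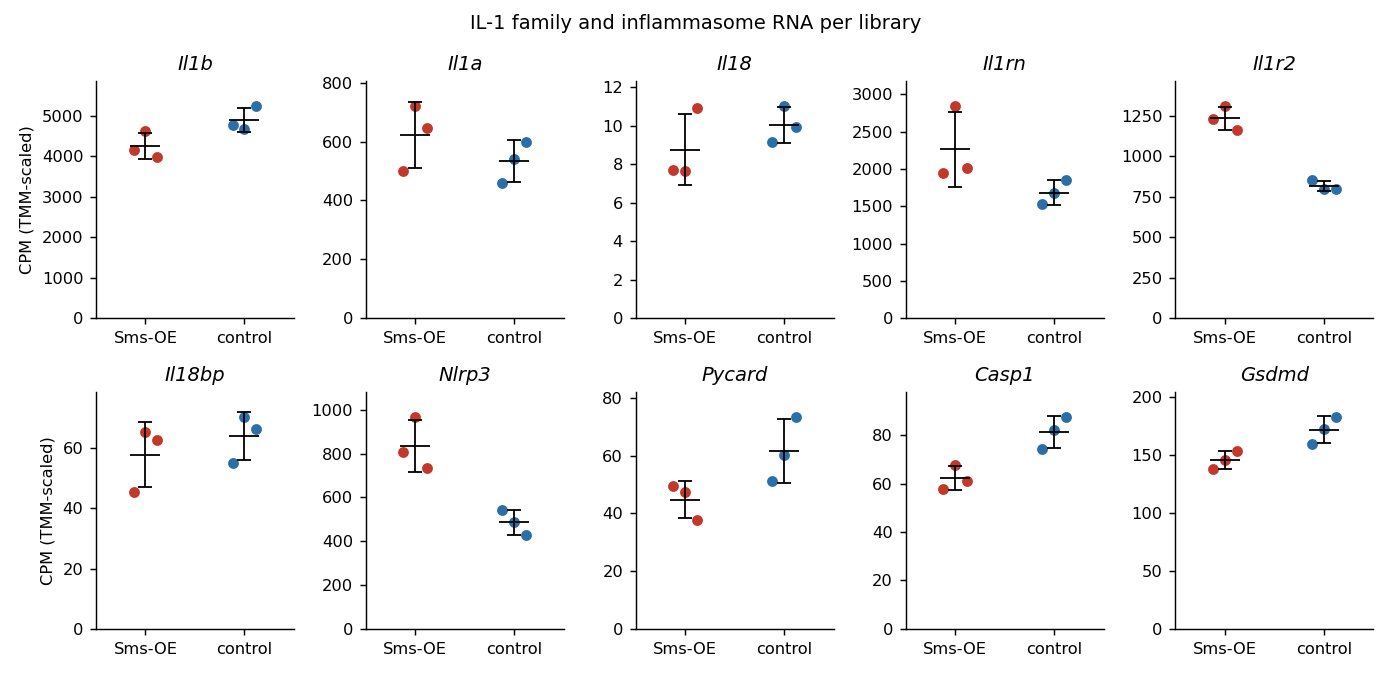
CPM (TMM-scaled) of each of the 10 members in the 3 Sms-OE libraries (red, left) and the 3 control libraries (blue, right); each point is a library, the long bar is the mean and the short bars are ± 1 SD. The points of the groups do not overlap for Il1b, Il1rn, Il1r2, Nlrp3, Pycard, Casp1 and Gsdmd, and they overlap for Il1a, Il18 and Il18bp. Among those without overlap Il1b, Il1rn and Gsdmd did not pass the test. Lack of overlap between 3 and 3 libraries is a description, given here without its share over all genes.

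Together the 10 members took 0.942, 1.05 and 0.921% of all counts in Sms-OE libraries, against 0.876, 0.838 and 0.868% in control libraries. Il1b had the largest part of that, with 0.439, 0.45 and 0.415% in Sms-OE and 0.492, 0.457 and 0.487% in control libraries. Levels of different genes were compared per kilobase of each gene's principal transcript in GENCODE M21. Il1b was at 3142 ± 241 CPM per kilobase in Sms-OE and 3614 ± 219 in control libraries (SD, n = 3 each), which placed it between rank 7 and rank 17 of 18253 genes in the 6 libraries. Il1rn and Il1r2 came next, at 914 ± 202 and 871 ± 50.9 CPM per kilobase in Sms-OE, and at 680.4 ± 65.4 and 575 ± 23.0 in control libraries. The ranges of these neighbours overlapped in Sms-OE and not in control libraries.

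Below them stood Il1a (315 ± 56.4 CPM per kilobase in Sms-OE, 270 ± 36.2 in control) and Nlrp3 (207 ± 29.7 in Sms-OE, 121 ± 14.2 in control). Gsdmd, Casp1 and Il18bp followed, at 81.5 ± 4.41, 41.6 ± 3.38 and 36.2 ± 6.73 CPM per kilobase in Sms-OE and at 96.1 ± 6.62, 54.2 ± 4.46 and 40.1 ± 4.95 in control libraries. The lowest were Pycard (11.8 ± 1.66 in Sms-OE, 16.2 ± 2.91 in control) and Il18 (10.2 ± 2.14 in Sms-OE, 11.6 ± 1.07 in control), and Il18 ranked between 4654 and 5864. In Sms-OE libraries Casp1 overlapped Il18bp and Pycard overlapped Il18, while in control libraries no neighbours in this order overlapped. The order depends on the transcript length taken: Pycard was divided by 3800 bases, and with the merged exons of each gene Il1rn (408 ± 90.2 in Sms-OE, 304 ± 29.2 in control) fell below Il1r2 (648 ± 37.8 in Sms-OE, 428 ± 17.1 in control).

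The RNA start regions of 5 members are printed here because they cover each kind of result: Il1r2 and Nlrp3 rose, Casp1 and Pycard fell, and Il1b was the most abundant member. Each window runs from 250 bases before to 50 bases after the annotated start and is taken from RefSeq (build GRCm38.p6), in lower case on the gene's own strand, 5′ to 3′, with motif matches in capitals. The windows are Il1r2 at chr1:40085843-40086142 (plus strand), Nlrp3 at chr11:59541319-59541618 (plus strand, the first of 2 annotated starts), Casp1 at chr9:5298267-5298566 (plus strand), Pycard at chr7:127993818-127994117 (minus strand) and Il1b at chr2:129371090-129371389 (minus strand). The RefSeq start of Il1r2 lies inside the longer span that GENCODE M21 gives the gene.
Il1r2: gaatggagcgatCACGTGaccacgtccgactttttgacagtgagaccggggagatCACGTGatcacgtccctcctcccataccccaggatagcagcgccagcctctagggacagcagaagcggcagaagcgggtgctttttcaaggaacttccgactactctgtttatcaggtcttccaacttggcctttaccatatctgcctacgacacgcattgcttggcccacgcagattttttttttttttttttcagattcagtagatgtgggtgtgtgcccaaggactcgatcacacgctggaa
Nlrp3: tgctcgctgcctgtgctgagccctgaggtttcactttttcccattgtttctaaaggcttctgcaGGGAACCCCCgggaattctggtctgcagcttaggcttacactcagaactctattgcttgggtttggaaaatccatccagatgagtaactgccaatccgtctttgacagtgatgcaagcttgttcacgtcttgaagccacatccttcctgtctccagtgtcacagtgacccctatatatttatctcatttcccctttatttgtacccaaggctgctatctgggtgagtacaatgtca
Casp1: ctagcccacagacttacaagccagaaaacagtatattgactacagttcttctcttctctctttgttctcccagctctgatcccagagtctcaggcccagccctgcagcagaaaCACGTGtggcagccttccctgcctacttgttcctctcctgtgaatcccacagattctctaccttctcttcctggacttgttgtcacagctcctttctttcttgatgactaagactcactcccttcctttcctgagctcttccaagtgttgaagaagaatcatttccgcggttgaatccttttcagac
Pycard: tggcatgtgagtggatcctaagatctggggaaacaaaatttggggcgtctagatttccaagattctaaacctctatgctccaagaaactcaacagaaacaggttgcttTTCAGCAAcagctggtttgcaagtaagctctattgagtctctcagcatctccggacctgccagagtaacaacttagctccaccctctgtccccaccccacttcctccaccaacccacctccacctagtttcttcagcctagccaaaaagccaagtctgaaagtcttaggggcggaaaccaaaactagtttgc
Il1b: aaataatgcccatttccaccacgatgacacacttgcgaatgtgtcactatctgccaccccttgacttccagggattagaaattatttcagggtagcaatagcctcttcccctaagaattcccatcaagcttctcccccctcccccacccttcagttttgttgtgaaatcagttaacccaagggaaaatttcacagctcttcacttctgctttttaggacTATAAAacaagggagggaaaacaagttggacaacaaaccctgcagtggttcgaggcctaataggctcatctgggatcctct
Capitals mark 5 motifs: the TATA box TATAAA (gene's strand only), the E-box CACGTG, the AP-1 motif TGANTCA, the C/EBP motif TTNNGCAA and the NF-kB consensus, all but the first searched on both strands. Windows were given for 9 of the 10 members, 12 in all; the remaining member is Gsdmd. Il1b carried a TATA box 31 bases before the start, and among the other members only Il1a had one, 32 bases before the start. Nlrp3 carried the NF-kB match 186 bases before the start, on both strands. Il1r2 held CACGTG at 238 and 195 bases before the start, and Casp1 held it at 137 bases before. Pycard held a C/EBP match 142 bases before the start. Of all 32851 RefSeq windows, 8.3% held the TATA box, 8.5% the NF-kB consensus, 7.8% the AP-1 motif, 10.8% the C/EBP motif and 7.2% the E-box. A match is a description of the letters, and the same E-box stood before a gene that rose and a gene that fell.

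Il1b encodes IL-1 beta, the main secreted IL-1 ligand of myeloid cells (ENSMUSG00000027398, chr2:129364570-129371139, minus strand, GRCm38). It was at 4165, 4623 and 3992 CPM in Sms-OE libraries and at 4777, 4686 and 5238 CPM in control libraries. Every Sms-OE library was below every control library, but the difference was small: the log2 fold change was -0.20 ± 0.111 (SE), 1.15-fold lower, and it did not pass the test (adjusted p = 0.215, edgeR). With offsets for transcript length and GC content its sign turned, to 0.13 (adjusted p = 0.371). Il1a, the neighbouring gene for IL-1 alpha, a ligand that is active without cutting, lies 54597 bases from Il1b, measured between their nearest ends (ENSMUSG00000027399, chr2:129299610-129309972, minus strand). It was at 501, 719.6 and 648 CPM in Sms-OE libraries and at 458, 542 and 599.5 CPM in control libraries. Those ranges overlapped, and the log2 fold change was 0.22 ± 0.146 (adjusted p = 0.294, edgeR). Without Sms-OE libraries 2 and 3, which were rich in haemoglobin RNA, it was -0.10 (adjusted p = 0.767), and with the offsets it was 0.51 and passed (adjusted p = 0.0295).

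Il18, the gene of IL-18, a ligand known for inducing interferon gamma, was the least abundant member (ENSMUSG00000039217, chr9:50554827-50581840, plus strand). It was at 7.72, 7.67 and 10.9 CPM in Sms-OE libraries and at 9.13, 11.0 and 9.92 CPM in control libraries. The groups overlapped, with a log2 fold change of -0.19 ± 0.179 (adjusted p = 0.473, edgeR), and 0.23 with the offsets (adjusted p = 0.491).

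Of the 3 genes for antagonists, Il1r2 rose, and Il1rn and Il18bp did not pass. Il1r2 encodes the type 2 IL-1 receptor, a decoy that binds IL-1 and does not signal (ENSMUSG00000026073, chr1:40074079-40125231, plus strand). It rose to 1234, 1309.5 and 1165 CPM in Sms-OE libraries, against 854, 798 and 797 CPM in control libraries. The lowest Sms-OE library stood well above the highest control library, and the log2 fold change was 0.60 ± 0.0971, 1.51-fold higher (adjusted p = 0.00212, edgeR). Spread was small in both groups, with a coefficient of variation of 5.84% in Sms-OE and 3.99% in control libraries. It passed under all 15 other fits tried, with log2 fold changes of 0.55 to 0.92.

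Il1rn encodes the IL-1 receptor antagonist, which occupies the receptor without activating it (ENSMUSG00000026981, chr2:24336853-24351494, plus strand). It was at 1938, 2836 and 2009 CPM in Sms-OE libraries and at 1523, 1681 and 1846 CPM in control libraries. All Sms-OE libraries were above all control libraries, but Sms-OE library 2 was far above the other two and the log2 fold change of 0.43 ± 0.154 did not pass (adjusted p = 0.0663, edgeR). It passed with library size alone (adjusted p = 0.0155), with DESeq2's Wald test (0.0151), with offsets for transcript length and GC content (0.0148) and without Sms-OE library 1 (0.0448). Without Sms-OE library 2 the log2 fold change was 0.22, and without both haemoglobin-rich libraries it was 0.20 (adjusted p = 0.457). Il18bp, the gene of the secreted IL-18 binding protein that blocks IL-18, did not pass (ENSMUSG00000070427, chr7:102014885-102018690, minus strand). It was at 45.5, 65.3 and 62.5 CPM in Sms-OE libraries and at 55.1, 70.2 and 66.4 CPM in control libraries, with overlapping groups. The log2 fold change was -0.15 ± 0.143 (adjusted p = 0.493, edgeR), and 0.02 with the offsets.

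Nlrp3 is the gene of the sensor (ENSMUSG00000032691, chr11:59541568-59566956, plus strand). It rose to 805, 966 and 732 CPM in Sms-OE libraries, against 543, 487 and 429 CPM in control libraries. No libraries overlapped, and the log2 fold change was 0.78 ± 0.13, 1.72-fold higher (adjusted p = 0.00239, edgeR). All 15 other fits called it too, with log2 fold changes of 0.65 to 0.86 and adjusted p-values of at most 0.0291.

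None of the 3 genes that act after the sensor rose: Pycard and Casp1 fell, and Gsdmd did not pass. Pycard encodes ASC, the adaptor between the sensor and caspase-1 (ENSMUSG00000030793, chr7:127989708-127993867, minus strand). It fell to 49.4, 47.3 and 37.6 CPM in Sms-OE libraries, against 51.3, 60.1 and 73.3 CPM in control libraries. The groups came close without overlapping, and the log2 fold change was -0.46 ± 0.143, 1.38-fold lower (adjusted p = 0.0384, edgeR). The call was lost in 9 of the 15 other fits, among them those without control library 2 (adjusted p = 0.0883), control library 3 (0.128), Sms-OE library 2 (0.0603) or Sms-OE library 3 (0.129). Pycard shares 485 exon bases, 12.8% of its own, with the antisense gene Gm45205, which was at 1.76, 2.73 and 2.53 CPM in Sms-OE and at 0.718, 0.842 and 1.19 CPM in control libraries.

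Casp1 encodes caspase-1, the protease that cuts the IL-1 beta and IL-18 precursors (ENSMUSG00000025888, chr9:5298517-5307265, plus strand). It fell to 57.8, 67.8 and 61.1 CPM in Sms-OE libraries, against 74.1, 82.0 and 87.4 CPM in control libraries. Every Sms-OE library was below every control library, and the log2 fold change was -0.38 ± 0.0968, 1.30-fold lower (adjusted p = 0.0164, edgeR). With offsets for length and GC content it was -0.03 (adjusted p = 0.833). It also missed the threshold without control library 2 (-0.39, adjusted p = 0.0615), control library 3 (-0.34, 0.0587) or Sms-OE library 3 (-0.37, 0.0528), and without both haemoglobin-rich libraries (-0.49, 0.0624), with log2 fold changes close to or beyond that of all 6 libraries.

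Gsdmd encodes gasdermin D, the pore protein (ENSMUSG00000022575, chr15:75862327-75867408, plus strand). It was at 138, 146 and 154 CPM in Sms-OE libraries and at 159.8, 173 and 183 CPM in control libraries. The groups did not overlap, and the log2 fold change of -0.24 ± 0.0885 did not pass (adjusted p = 0.0727, edgeR). With the offsets for length and GC content it was -0.02 (adjusted p = 0.878).

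**Figure D2:**
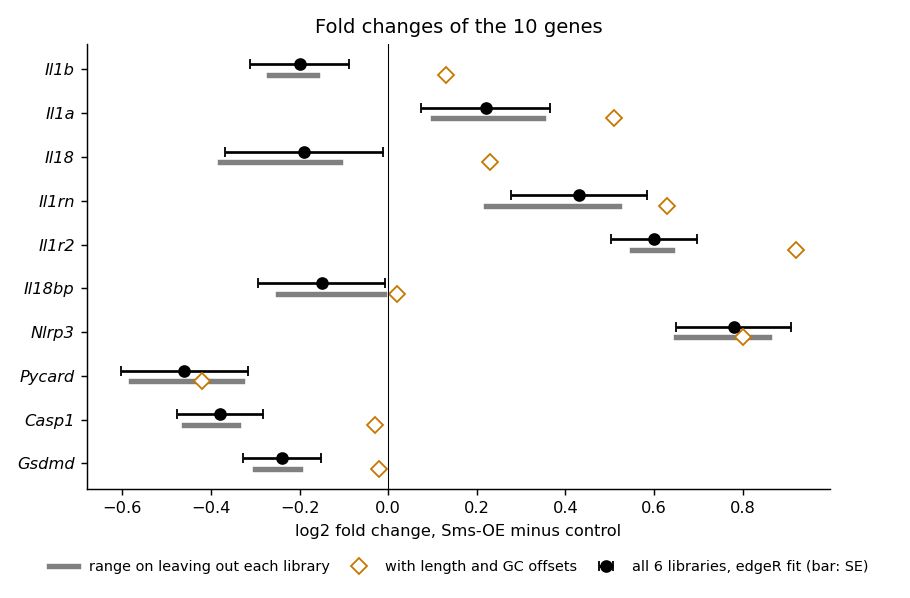
Log2 fold change (Sms-OE minus control) of each of the 10 members: black points with bars of ± 1 SE are edgeR's fit on all 6 libraries, grey bars the range when each library was left out in turn, and open diamonds the fit with offsets for transcript length and GC content. Nlrp3 (0.78) and Il1r2 (0.60) lie to the right of 0 in every fit shown, and the diamond of Casp1 (-0.03) lies apart from its point (-0.38).

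Transcript length went with the direction of change over all genes. Among the 4565 tested genes with the shortest transcripts (up to 1572 bases), 233 were higher and 808 lower in Sms-OE, with a median log2 fold change of -0.14. Among the 4562 with the longest (4315 bases and more), 1198 were higher and 331 lower, with a median of 0.19. Il1b, Il1r2, Il18 and Casp1 were among the shortest, where more genes fell than rose, and no member was among the longest. The share of mitochondrial RNA also differed, at 3.12, 2.42 and 2.15% of counts in Sms-OE libraries and 4.99, 5.78 and 7.13% in control libraries. The part of the mitochondrial share in the changes of the members was not tested.

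Ratios of 2 members within the same library need no scaling between libraries, and 4 were compared by a two-sided exact permutation test over the 20 assignments of the 6 libraries, whose smallest possible p is 0.1. They are ratios of counts and not of molecules, since transcript lengths differ between genes. A shift between groups that goes with transcript length does not cancel between genes of unlike length. The offsets for length and GC content moved the log2 fold change of Il1b from -0.20 to 0.13 and that of Il1rn from 0.43 to 0.63. They moved Nlrp3 from 0.78 to 0.80 and Pycard from -0.46 to -0.42. The move of Pycard rests on an annotated transcript length of 3800 bases, and offsets with another length were not tried. Il1b counts were 2.15, 1.63 and 1.99 times those of Il1rn in Sms-OE libraries and 3.14, 2.79 and 2.84 times in control libraries. The difference of the log2 ratios was -0.61, and the groups did not overlap (exact p = 0.1, 0.133 adjusted over the 4 ratios). Il1b counts were 3.38, 3.53 and 3.43 times those of Il1r2 in Sms-OE libraries and 5.59, 5.87 and 6.57 times in control libraries. The log2 ratio had an SD of 0.033 in Sms-OE and 0.119 in control libraries, and it differed by -0.80, with no overlap (exact p = 0.1, adjusted 0.133). Both ratios share the counts of Il1b and restate the fold changes of the members, so they are not separate results.

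Nlrp3 counts were 16.3, 20.4 and 19.5 times those of Pycard in Sms-OE libraries and 10.6, 8.1 and 5.85 times in control libraries. The sensor-to-adaptor ratio was thus 2.35-fold higher in Sms-OE, a log2 difference of 1.23, with groups that did not overlap (exact p = 0.1, adjusted 0.133). It joins the rise of Nlrp3 and the fall of Pycard in the same libraries and is not a separate result. The ratio of Il18 to its binding protein's gene Il18bp was 0.17, 0.118 and 0.174 in Sms-OE libraries and 0.166, 0.156 and 0.149 in control libraries. Its groups overlapped, and the log2 difference was -0.05 (exact p = 1).

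**Figure D3:**
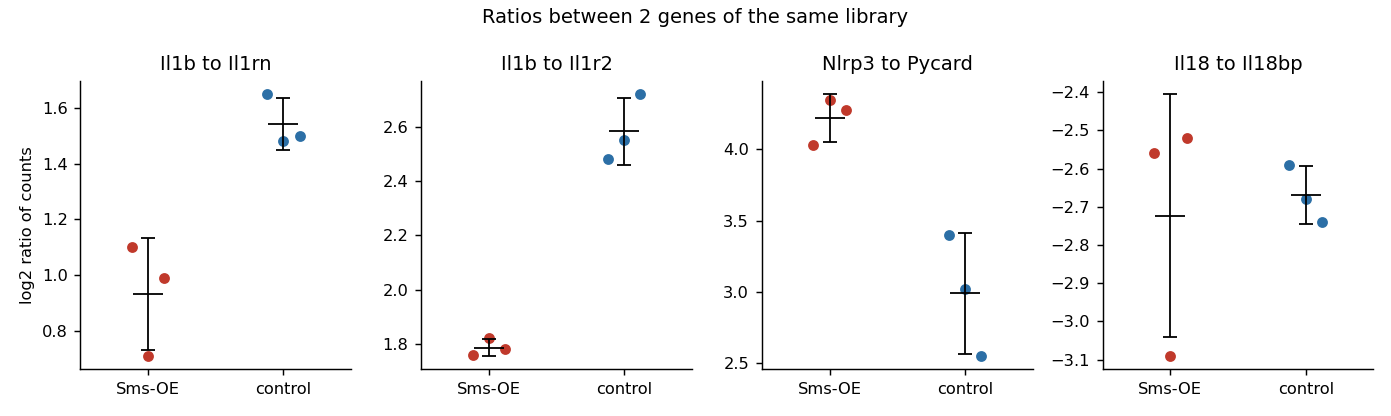
Log2 ratios of the counts of 2 members in the same library, for 3 Sms-OE libraries (red, left) and 3 control libraries (blue, right), with mean and ± 1 SD; the axes do not start at 0. Both ratios of Il1b to an antagonist's gene are lower in every Sms-OE library (differences of -0.61 and -0.80), and they share the counts of Il1b. Nlrp3 to Pycard is higher in every Sms-OE library (1.23), and Il18 to Il18bp overlaps (-0.05).

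Neutrophils and Kupffer cells express several of these genes, so the marker levels belong beside the results. Across all genes tested, 12.5% were higher and 14.3% lower, and counts of called markers from lists this short are descriptions. Of the 14 neutrophil markers 3 rose (Mmp9, Elane and Mpo) and none fell, at a median log2 fold change of -0.15. S100a9 and Csf3r, abundant markers that differed in opposite directions, did not pass. S100a9 was at 1120.4, 1232 and 628 CPM in Sms-OE and at 1289, 1535 and 2140.1 CPM in control libraries. Csf3r, the G-CSF receptor gene, was at 1856, 1636 and 1691 CPM in Sms-OE and at 1628, 1457 and 1361 CPM in control libraries. The defining marker Ly6g was low, at 6.88, 7.69 and 2.74 CPM in Sms-OE and at 5.89, 8.24 and 9.85 CPM in control libraries. Among classical monocyte markers 0 of 6 rose and 2 fell, and their sum was 1590.3 to 2074 CPM in Sms-OE and 1964 to 2427 CPM in control libraries. Dendritic cell markers, where 1 of 7 rose and 3 fell, summed to 49.2 to 57.3 CPM in Sms-OE and 70.0 to 86.3 CPM in control libraries. Of the 8 hepatocyte and hepatoma genes 7 fell, with sums of 202 to 317 CPM in Sms-OE and 509 to 676 CPM in control libraries. Most of these sums was Alb, at 193 ± 44.8 CPM in Sms-OE and 395 ± 60.8 CPM in control libraries (SD). The gene that did not pass was Afp, at 64.6, 63.2 and 46.3 CPM in Sms-OE and 68.4, 55.2 and 67.3 CPM in control libraries (adjusted p = 0.517, edgeR). Endothelial genes (1 of 6 higher, 3 lower) summed to 116 to 153 CPM in Sms-OE and 141 to 157 CPM in control libraries, and those of stellate cells and fibroblasts (2 of 5 tested higher) to 97.8 to 135 CPM in Sms-OE and 64.9 to 82.9 CPM in control libraries. None of the markers of B cells, of basophils and mast cells or of erythroid cells passed, although the erythroid sum ran from 216 to 5043 CPM in Sms-OE, against 43.2 to 189 CPM in control libraries. No marker of any list was at 0 in all 6 libraries. The part of these cells in the changes of Nlrp3, Il1r2, Casp1 and Pycard was not tested.

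Among the other IL-1 family ligands and receptors, 4 of the 10 tested rose, none fell and 6 did not pass. Of all genes tested 12.5% were higher and 14.3% lower, and 10 genes are too few for the share to be read as a result. The 4 that rose were Il1r1, Il18rap, Il18r1 and Il1f6. The median log2 fold change of the list was 0.18. Il1r1 encodes the signalling IL-1 receptor and was low: it rose to 12.0, 6.97 and 9.41 CPM in Sms-OE libraries, against 2.57, 2.38 and 2.75 CPM in control libraries. With a log2 fold change of 1.88 ± 0.228, 3.69-fold higher, it passed under every other fit (adjusted p = 0.000574, edgeR).

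Both chains of the IL-18 receptor rose. Il18rap, the accessory chain, was at 141, 145 and 161 CPM in Sms-OE libraries and at 124, 102 and 107 CPM in control libraries (log2 fold change 0.43 ± 0.0984, adjusted p = 0.0106, edgeR). Il18r1, the binding chain, was at 39.5, 23.8 and 36.5 CPM in Sms-OE libraries and at 22.0, 18.0 and 20.9 CPM in control libraries (log2 fold change 0.71 ± 0.176, adjusted p = 0.0149, edgeR). Il18rap lost its call without control library 2 or 3 (adjusted p up to 0.071), and Il18r1 without control library 2, Sms-OE library 1 or Sms-OE library 3 (up to 0.0744). T and NK cells, which carry the IL-18 receptor, had 1 of 8 markers higher and marker sums of 264 to 428 CPM in Sms-OE and 233 to 360.2 CPM in control libraries, and their part in the change was not tested.

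Il1f6, the older symbol for the gene of IL-36 alpha, was near the floor at 2.12, 2.99 and 0.696 CPM in Sms-OE libraries and 0.634, 0.537 and 0.0833 CPM in control libraries. Its log2 fold change of 2.19 ± 0.681 passed (adjusted p = 0.0391, edgeR) but was lost when any of 5 of the 6 libraries was left out, all but Sms-OE library 3. Il1f9, the gene of IL-36 gamma, named here for its level after the values were seen, did not pass, at 197, 266 and 139 CPM in Sms-OE and 219, 186 and 176 CPM in control libraries (adjusted p = 0.881, edgeR). Il1f5, Il1f8 and Il1f10 had too few counts to be tested. Il1r2, Il1r1, Il1rl2, Il1rl1, Il18r1 and Il18rap lie next to each other on chromosome 1, from 40074079 to 40551705. Of these 6 genes 4 rose, beside 12.5% of all genes tested, and Il1rl1 and Il1rl2 did not pass. They are too few for the share to be read as a result.

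Of the 19 signalling genes downstream of the IL-1 receptor 5 rose, none fell and 14 did not pass, at a median log2 fold change of 0.19, beside 12.5% of all genes tested that were higher and 14.3% that were lower. Irak3, which encodes an inhibitor of this signalling (IRAK-M), had the smallest p of the list. It rose to 106, 117 and 88.1 CPM in Sms-OE libraries, against 43.0, 41.4 and 40.7 CPM in control libraries. The log2 fold change was 1.31 ± 0.109, 2.48-fold higher (adjusted p = 0.000136, edgeR), and it passed under every other fit.

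Irak2, a kinase-like protein that sustains signalling, was at 200.5, 249.8 and 238 CPM in Sms-OE libraries and at 179, 169 and 163 CPM in control libraries (log2 fold change 0.43 ± 0.101, adjusted p = 0.0118, edgeR). Tab3 and Tab2 encode partners of the kinase TAK1. Tab3 was at 24.3, 27.0 and 25.9 CPM in Sms-OE libraries and at 19.1, 18.2 and 16.9 CPM in control libraries (log2 fold change 0.51 ± 0.109, adjusted p = 0.00742, edgeR). Tab2 was at 192, 192 and 209 CPM in Sms-OE libraries and at 158, 161 and 147 CPM in control libraries (log2 fold change 0.34 ± 0.085, adjusted p = 0.0146, edgeR). Irak2 and Tab2 missed the threshold without control library 2 or 3 (adjusted p up to 0.0622 and 0.0702), and Tab2 also without Sms-OE library 3. Without both haemoglobin-rich libraries only 3 of the 10 pathway genes that rose still passed, Il1r1, Il18r1 and Irak3. The fifth gene of the list that passed was Traf6, the ubiquitin ligase of the pathway (log2 fold change 0.36 ± 0.11, adjusted p = 0.0357, edgeR), which the naming rule left out. Traf6 missed the threshold without control library 2 or 3, without Sms-OE library 2 or 3, and with the offsets for length and GC content.

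Of the 19 other inflammasome genes 1 rose, 1 fell and 17 did not pass, beside 26.9% of all genes called in either direction, and the median log2 fold change was 0.13. Nlrc4, the sensor protein that works with the NAIP receptors of bacterial flagellin and secretion systems, rose to 11.0, 8.69 and 11.3 CPM in Sms-OE libraries, against 8.0, 6.97 and 6.12 CPM in control libraries. Its log2 fold change was 0.56 ± 0.174 (adjusted p = 0.0389, edgeR), and it was lost without control library 2 or 3, or without Sms-OE library 1 or 3 (adjusted p up to 0.131). Txnip, whose protein binds thioredoxin and has been described as a partner of NLRP3, fell to 549, 663 and 602 CPM in Sms-OE libraries, against 782, 813 and 851 CPM in control libraries. Its log2 fold change was -0.43 ± 0.102 (adjusted p = 0.0124, edgeR), and -0.29 with offsets for length and GC content (adjusted p = 0.0664). Without control library 2 it missed the threshold too (adjusted p = 0.0519).

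**Figure D4:**
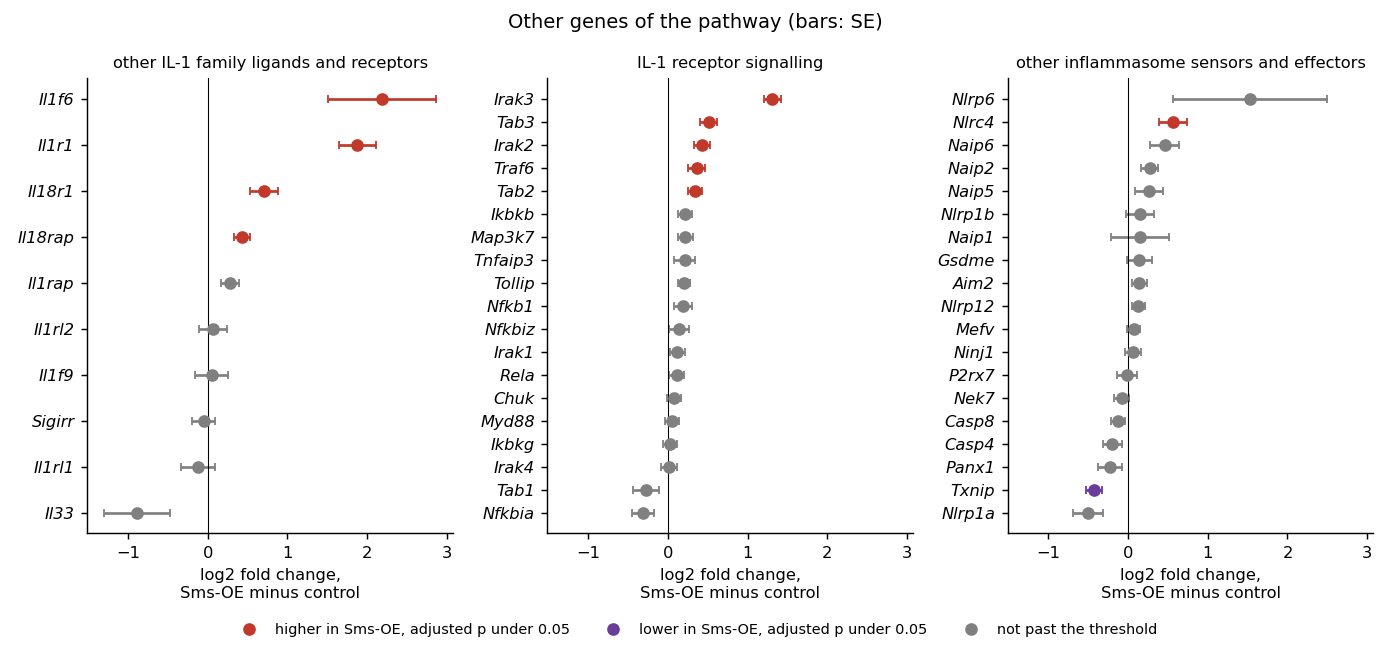
Log2 fold change (Sms-OE minus control) ± 1 SE of the tested genes of the other IL-1 family list (10), the IL-1 receptor signalling list (19) and the other inflammasome list (19); red marks genes past an adjusted p of 0.05 that are higher in Sms-OE, purple the one that is lower, and grey the rest. Among the genes past the threshold Il1f6 (2.19), Il1r1 (1.88) and Irak3 (1.31) reach farthest and Txnip (-0.43) is the single one that is lower; Nlrp6 (1.53, grey) did not pass.

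The genes whose profile over the 6 libraries was most like that of Nlrp3 were Fnip2, Smcr8 and Osgin1, among 10302 candidates with a mean of at least 5 CPM. Likeness was the root mean square difference of log2 CPM, each centred on its own mean, and it was 0.0381 for Fnip2, 0.0409 for Smcr8 and 0.0621 for Osgin1. All 3 rose in Sms-OE, with log2 fold changes of 0.85, 0.73 and 0.76. For Il1b the most alike were Tomm20 (0.0195), Gm10359 (0.0199) and Pgls (0.0243), none of which passed. All these likenesses come from 6 libraries that share depth and scaling, and they are descriptions. The genes were picked by likeness over the same libraries. Their rise with Nlrp3, or their lack of a call with Il1b, therefore follows from the choice.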

How the data were processed

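The values deposited by the authors are estimated counts, whole numbers for each gene and library, from 3 libraries of F4/80+ cells per group. Per the labels' protocols, RNA was selected on oligo(dT), and dUTP with UDG marked the strand. HISAT2 2.2.1, StringTie 2.1.6, DESeq2, cutadapt 1.9 and FastQC 0.11.9 were used, per the submitters' processing notes. Build, annotation and strand setting are not given in the sources used, so reads of overlapping antisense genes may not be separable.

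Of 55401 rows, 55141 matched a symbol in GENCODE M21 (GRCm38), which also gave positions; the share of counts in the 260 others was at most 0.0125% in any library. Genes were filtered with filterByExpr, scaled with TMM and tested with the robust quasi-likelihood test of edgeR 4.0.16 (R 4.3.3, limma 3.58.1) over all 18277 genes, with Benjamini-Hochberg adjustment and a threshold of 0.05. Fold changes are fitted with a prior count of 0.125. The SE beside a log2 fold change was worked back from the test, as its absolute value divided by the square root of the F statistic. Ratios used counts + 0.5. The fit was tested on simulated data. Libraries of a group shared identical counts for at most 3.65% of genes. The values gave no sign that replicate numbers pair the libraries, though this cannot settle how the libraries were made. The deviations of same-numbered libraries correlated at 0.065, 0.02 and -0.008, and those of other pairs at -0.066 to 0.044. Alternatives were DESeq2 1.42.0, limma-voom, other scalings, no filter, a replicate block, offsets for length and GC content (known for 99.9% of tested genes) and leaving libraries out. Leaving out both haemoglobin-rich libraries was chosen after seeing the data.

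The members, pathway lists and marker lists were chosen with earlier results of these data known. Named were all 10 members, up to 4 called genes per pathway list by smallest p, and the 3 genes most like Il1b and Nlrp3.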

Additional observations from a re-analysis of the deposited data

How the results depend on the processing

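Il1r2 and Nlrp3 were called higher under all 15 other fits. With offsets for length and GC content 4 members were higher (Il1a, Il1r2, Il1rn and Nlrp3), and 0 were lower, against 2 higher and 2 lower before. The lower members were 1 (Casp1) with library size alone, with upper-quartile factors and with the replicate block, 0 without both haemoglobin-rich libraries, 0 at a threshold of 0.01, and 0 to 2 when each library was left out. Of the 48 pathway genes tested, 10 were higher; 3 were higher without both haemoglobin-rich libraries, and 3 to 9 when each library was left out. The pathway genes that were lower, 1 at first, numbered 2 with the replicate block, 0 with the offsets, and 0 to 3 when each library was left out. Directions reversed for members that had not passed: Il1a was at -0.10 without both haemoglobin-rich libraries, and with the offsets Il1b was at 0.13 (adjusted p = 0.371), Il18 at 0.23 (0.491) and Il18bp at 0.02 (0.948), edgeR. The Il18 to Il18bp difference was 0.11 without both haemoglobin-rich libraries and -0.15 to 0.13 when each library was left out. The replicate block, which pairs libraries by number only, ended the calls of Pycard (adjusted p = 0.0843), Nlrc4 and Traf6 and added Naip6, and paired ratios had a smallest exact p of 0.25. Over all genes, 1366 were higher and 1684 lower without control library 2, and 690 and 694 without both haemoglobin-rich libraries, which left 1 Sms-OE library that was assumed to vary like the controls. The cause was not tested.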

Other observations

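Several unnamed or antisense genes overlap the members in GENCODE M21, and their values were looked at after those of the members. There were 8 such genes, of which 7 were tested and 6 were higher in Sms-OE, beside 12.5% of all genes tested. So few genes do not let the share be read as a result. The 6 include the protein-coding gene Numa1, with a log2 fold change of 0.36, and 0.01 with the offsets for length and GC content. When each of the 6 libraries was left out in turn, Numa1 passed in 2 of the fits and Gm45205 in 4. Gm37347, a transcribed region on the same strand inside Il1r2 that shares no exon with it (chr1:40088511-40091581), was at 117, 95.8 and 112 CPM in Sms-OE libraries and at 45.6, 40.6 and 32.3 CPM in control libraries. Its log2 fold change was 1.46 ± 0.132 (adjusted p = 0.000187, edgeR), beside 0.60 for Il1r2. Gm16894, antisense to Il1r2, had a log2 fold change of 0.96 ± 0.183 (adjusted p = 0.00455, edgeR).

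The antisense genes of the IL-1 ligands rose while the ligands themselves did not pass. Il1bos, antisense to Il1b with 25 shared exon bases, was at 38.8, 48.1 and 42.8 CPM in Sms-OE libraries and at 27.5, 27.4 and 24.7 CPM in control libraries (log2 fold change 0.71 ± 0.109, adjusted p = 0.0017, edgeR). Gm14023, antisense to Il1a with 222 shared exon bases, was at 32.1, 36.8 and 42.9 CPM in Sms-OE libraries and at 17.2, 28.0 and 20.4 CPM in control libraries (log2 fold change 0.77 ± 0.176, adjusted p = 0.0104, edgeR). Without control library 3 Gm14023 missed the threshold (adjusted p = 0.0503), and without both haemoglobin-rich libraries neither passed. Since no source used states the strand setting of the counting, reads of these pairs may not be separable where exons are shared.

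Il1a counts were 0.12, 0.156 and 0.162 of those of Il1b in Sms-OE libraries and 0.0958, 0.116 and 0.114 in control libraries. The groups did not overlap; this ratio was chosen after its values were seen and was not tested.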
